A study of Mus musculus with 3 samples.

Results

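The 10 genes described here are the Notch ligands Dll1, Dll4 and Jag1, the receptors Notch1 and Notch2, the receptor-modifying glycosyltransferase gene Lfng, and the target or Hes family genes Hes1, Hes5, Hes6 and Nrarp. They were taken by gene symbol, and all 10 were found among the 20738 genes with a value on each array. RNA of whole proximal jejunum, a stretch of the small intestine, from Sox4 knockout mice (Cy5 dye) was hybridised together with RNA of wild-type proximal jejunum (Cy3 dye) on 3 Agilent arrays of 2 colours. The knockout is labelled vilCre, that is, a Cre recombinase driven by the villin promoter, which is active in the intestinal epithelium and not in the other cells of the gut wall. Each array held 1 knockout mouse. The labels used here do not give the age or sex of the mice, nor whether the wild-type RNA was pooled. Every array had the same dye orientation.

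Notch signalling passes between touching cells. A ligand of the Delta-like or Jagged family on one cell binds a Notch receptor on its neighbour, the receptor is cut first by an ADAM protease and then by gamma-secretase, and the released intracellular part enters the nucleus, where it joins the DNA-binding protein Rbpj and switches on target genes such as the Hes repressors. In the crypts of the small intestine this pathway keeps progenitors dividing and directs them to the absorptive lineage, while cells that express Dll1 and Dll4 and escape Notch activation take on secretory fates. Fringe enzymes such as the product of Lfng add a sugar to the receptor and so alter its response to Delta-like and Jagged ligands.

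The highest ratio among the 10 genes was that of Lfng, which was above wild type on every array, and the next highest was that of Nrarp. The classical Notch targets Hes1 and Hes5 and the related Hes6 lay close to 0. With limma's moderated test and p-values adjusted over all genes by the Benjamini-Hochberg method, 0 of the 10 genes passed an adjusted p of 0.05, where 0.328% of all genes did. At an unadjusted p under 0.05 there were 3 of the 10, Lfng, Nrarp and Notch2, all higher, where 26.3% of all genes reached that level in either direction and 12% in the upward direction. With an array left out, Lfng stayed under that level each time, while Nrarp missed it without array 1 and Notch2 missed it whichever array was left out. Robust eBayes, the other form of the test that was run, also called 0. The median of the 10 mean log2 ratios was 0.12, against -0.03 for all genes. Of the 10, 4 were above 0 on all arrays (23.2% of all genes were) and 2 were below 0 on all arrays (27.3% of all genes were).

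The regulatory sequence before 3 of these genes is shown first, because Lfng and Nrarp had the highest ratios and Hes5 is a target that did not share them. RefSeq promoter windows of build GRCm38.p6 were found for 9 of the 10 genes, and Hes1 had none in that table. Within the 250 bases before each start, the binding core of Rbpj, TGGGAA, read on both strands (TTCCCA on the other), was present in windows of 2 of the 9 genes, Lfng and Hes5, with 2 matches each. Of all 32851 promoter windows of that length, 21.59% held at least 1 match. The Lfng window, chr5:140607091-140607340 on the plus strand, is printed 5′ to 3′ with its matches in capitals.
Lfng: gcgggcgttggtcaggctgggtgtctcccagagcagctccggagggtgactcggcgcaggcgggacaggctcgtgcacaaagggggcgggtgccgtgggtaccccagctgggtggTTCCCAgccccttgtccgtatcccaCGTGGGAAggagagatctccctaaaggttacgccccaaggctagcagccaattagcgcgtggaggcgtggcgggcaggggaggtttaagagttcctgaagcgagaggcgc
The first match begins 135 bases before the start. The second, 108 bases before it, belongs to the longer form CGTGGGAA, which contains the core and which 0.64% of all windows held on either strand. Both Hes5 matches are shown within 30 bases on the plus strand, the first at chr4:154960685-154960714 and the second at chr4:154960829-154960858. Read on the strand of the core, each is part of TGTGGGAA, which differs from CGTGGGAA in its first base only. The form TGTGGGAA was not searched for, so its share of all windows is not known.
Hes5 first match: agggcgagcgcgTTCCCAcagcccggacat
Hes5 second match: ggccgccgagtgTGGGAAcggccgcggcgc
The Nrarp window, chr2:25180508-25180757 on the plus strand, held no match to TGGGAA on either strand and therefore has no capitals.
Nrarp: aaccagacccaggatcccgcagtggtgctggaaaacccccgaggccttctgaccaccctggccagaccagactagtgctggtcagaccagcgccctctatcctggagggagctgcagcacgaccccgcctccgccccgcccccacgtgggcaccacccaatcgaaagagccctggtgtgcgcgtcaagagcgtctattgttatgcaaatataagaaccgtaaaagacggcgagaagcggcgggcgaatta
The Sox motif AACAAAG, searched on both strands, had a match in 0 of the 9 genes and in 5.03% of all windows. These are letter matches within a short window and say nothing of whether a factor is bound.

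The values that follow give knockout relative to wild type as log2 ratios, so that 1 is a doubling, with the SD over n = 3 arrays and the 95% interval of the moderated test. The direction follows the dye labels, and the base of the logarithm was taken from the range of the values. The arrays correlated with each other at 0.414 to 0.57 over genes. Sox4 itself had -0.66, 0.18 and -0.46 on arrays 1, 2 and 3, which puts array 2, labelled Sox4 knockout like the rest, above wild type for the mean of 3 features. Feature 53932 was below 0 on all arrays (-1.21, -0.72 and -0.93), feature 32792 had 0.06, 1.23 and -0.02, and feature 35668 had -0.82, 0.03 and -0.43. Sex-linked genes differed on every array, with the Y-linked Eif2s3y at -7.28 ± 0.25 and Xist at 1.71 ± 0.18, so sex and genotype cannot be told apart in any result here. Defining epithelial genes of the labelled tissue had a list median of 0.09 over 10 genes, from -0.27 to 0.83, with 0 past limma's test. At an unadjusted p under 0.05, 2 were higher, where 12% of all genes were. Means were below 0 for 8 of 8 fat markers (median -2.10) and 6 of 6 blood markers (median -1.29). The same held for 11 of 12 enteroendocrine markers (median -0.78) and 8 of 9 pancreas acinar markers (median -0.70). At a limma adjusted p under 0.05, 5 fat, 2 blood, 4 enteroendocrine and 0 acinar markers were lower, where 0.222% of all genes were. At a limma unadjusted p under 0.05, 4 acinar markers were lower and 1 higher, where 14.3% and 12% of all genes were. Means were above 0 for 8 of 9 proliferation markers (median 0.32), with 0 past the adjusted threshold. At the unadjusted level, 4 proliferation markers were higher and 1 lower. In whole tissue, fewer cells of a type and less RNA per cell cannot be told apart.

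Among the ligands, Dll1 and Dll4 are the Delta-like ligands of secretory precursors, and Dll4 is also made by endothelium. Dll1 had log2 ratios of -0.09, -0.03 and 0.36 on arrays 1, 2 and 3. It was high on array 3 only, with a mean of 0.08 ± 0.25 (interval -0.27 to 0.43, n = 3, limma adjusted p = 0.734). Dll1 had the most features of the 10 genes, 10 under the same transcript accession. On array 1 the 10 features ran from -0.166 to 0.006, on array 2 from -0.065 to -0.005, and on array 3 from 0.295 to 0.464. The features of array 3 thus did not overlap those of the other arrays. The SD among the 10 features was 0.058, 0.020 and 0.056 on the respective arrays, while the SD between the array means was 0.247. Across the 275 genes with 10 features of 1 accession, the median SD among features was 0.096, 0.054 and 0.068, and the median SD between array means was 0.190. Features repeated on 1 array measure technical spread, and the arrays differ by mouse as well.

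Dll4 had log2 ratios of 0.05, 0.05 and 0.40 on arrays 1, 2 and 3. It was above 0 on every array and, like Dll1, highest on array 3 (mean 0.17 ± 0.21, interval -0.16 to 0.49, adjusted p = 0.446 by limma). Without array 3 its mean was 0.05. Within arrays Dll1 minus Dll4 was -0.14, -0.08 and -0.04. The mean difference of -0.09 ± 0.05 (SD, n = 3) had a two-sided exact sign-flip p of 0.25, the smallest that 3 arrays allow, and 0.40 after adjustment over 8 such pairs. The endothelial marker list, 12 genes of which 0 passed limma's test (0 also at an unadjusted p under 0.05), had medians of -0.35, 0.11 and 0.14 on the 3 arrays, and its part in the Dll4 ratios was not tested.

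Jag1, the Jagged ligand, lay below 0 on every array, at -0.12, -0.34 and -0.02. Its lowest ratio was on array 2 and the ratio of array 3 was near 0, giving a mean of -0.16 ± 0.16 (interval -0.46 to 0.14, limma adjusted p = 0.433). Dll1 minus Jag1 was 0.03, 0.30 and 0.39, a mean of 0.24 ± 0.18 (exact sign-flip p = 0.25, adjusted p = 0.40, n = 3). The means of Dll1 and Jag1 had opposite signs only through array 3, since without it the mean of Dll1 was -0.06. The interval of each of the 3 ligands included 0.

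**Figure D1:**
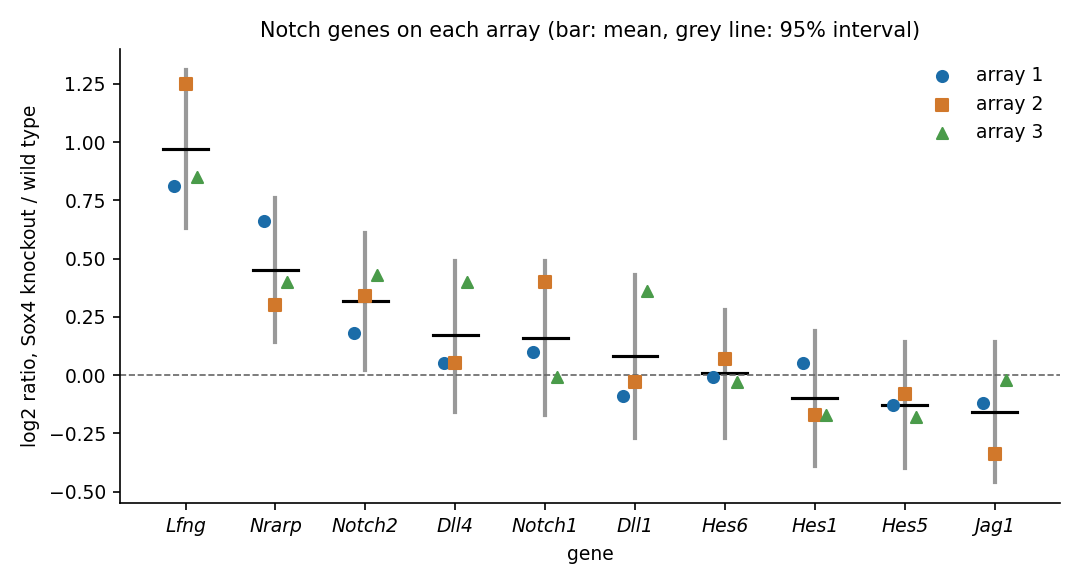
Log2 ratio of knockout over wild type (y axis) of the 10 Notch genes (x axis, ordered by mean), with 1 point per array, the mean as a black bar and the 95% interval of limma's moderated test as a grey line. Lfng lies between 0.81 and 1.25, above the 3 points of Nrarp (0.30 to 0.66), while Hes6, Hes1, Hes5 and Jag1 lie around or below 0.

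Notch1 and Notch2 are the receptors of the crypt epithelium. Notch2 was above 0 on every array, with log2 ratios of 0.18, 0.34 and 0.43 and a mean of 0.32 ± 0.12 (interval 0.02 to 0.61). This corresponds to a 1.25-fold higher ratio (limma unadjusted p = 0.0381, adjusted p = 0.168, n = 3). The pair of Notch2 features did not move together, however. Feature 2936 had 0.19, 0.52 and 0.94, and feature 50 had 0.17, 0.15 and -0.09. They were alike on array 1 and lay on opposite sides of 0 on array 3. Alone, feature 2936 had a mean of 0.55 ± 0.37 (adjusted p = 0.127) and feature 50 a mean of 0.08 ± 0.14 (adjusted p = 0.715), both from limma over all named features.

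Notch1 had log2 ratios of 0.10, 0.40 and -0.01. It was high on array 2 and near 0 on array 3, with a mean of 0.16 ± 0.22 (interval -0.17 to 0.49, limma adjusted p = 0.461). Its features kept a steady distance on all arrays. Feature 48161 had 0.21, 0.54 and 0.10, while feature 267 had -0.02, 0.27 and -0.12. Both were highest on array 2. Notch1 minus Notch2 was -0.09, 0.07 and -0.44 within arrays, without a common sign (mean -0.15 ± 0.26, exact sign-flip p = 0.50, adjusted p = 0.571, n = 3).

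**Figure D2:**
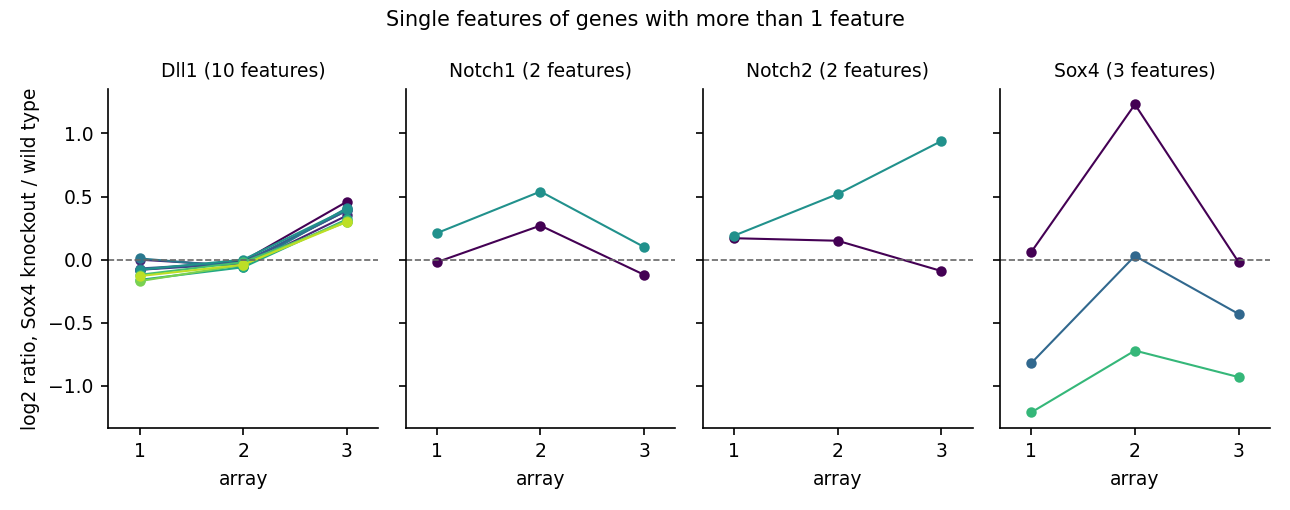
Log2 ratio of knockout over wild type (y axis) of each single feature on arrays 1, 2 and 3 (x axis) for the Notch genes with more than 1 feature and for Sox4. Lines join the values of 1 feature and imply no order of the arrays. The 10 Dll1 features lie within 0.295 to 0.464 on array 3, the Notch2 features part on array 3 (0.94 and -0.09), and of the Sox4 features only 53932 is below 0 on all arrays.

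Lfng encodes lunatic fringe. Its log2 ratios were 0.81, 1.25 and 0.85 on arrays 1, 2 and 3. All arrays were well above 0 and the highest was array 2, and the lowest value of Lfng exceeded the highest value of each of the other 9 genes. The mean was 0.97 ± 0.24 (interval 0.63 to 1.31, n = 3), a 1.96-fold higher ratio with an interval of 1.54-fold to 2.48-fold. With an unadjusted p of 0.000584 and an adjusted p of 0.0621 by limma, Lfng missed the threshold. It ranked 135 from the highest mean and 194 by p among 20738 genes. The mean was 0.83 when array 2 was left out (adjusted p = 0.104). It was 1.05 without array 1 and 1.03 without array 3, with adjusted p-values of 0.240 and 0.209. Lfng rests on 1 feature, so no second feature bears on its value.

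The other Fringe genes had different ratios. Mfng, which encodes manic fringe, was below 0 on every array at -0.42, -0.49 and -0.19 (mean -0.37 ± 0.15, limma unadjusted p = 0.0258, adjusted p = 0.141). Rfng, which encodes radical fringe, varied little at 0.15, 0.21 and 0.16 (mean 0.17 ± 0.03, adjusted p = 0.353 by limma). Within arrays Lfng exceeded Mfng by 1.23, 1.73 and 1.04 (mean difference 1.33 ± 0.36, n = 3, exact sign-flip p = 0.25). It exceeded Rfng by 0.66, 1.04 and 0.69 (mean difference 0.80 ± 0.21, n = 3, exact sign-flip p = 0.25). Both pairs had an adjusted p of 0.40. The design cannot give a smaller p, and in 3 of 3 arrays the difference had the same sign.

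Several marker lists were also highest on array 2, where Lfng was highest, and the enteroendocrine, fat and proliferation lists were lowest there. The 6 measured Paneth cell markers had medians of -0.18, 1.25 and 0.19, the 10 goblet cell markers -0.19, 0.75 and -0.12, and the 9 tuft cell markers -1.06, 0.65 and -0.39. The 10 stem cell markers had medians of 0.02, 0.22 and 0.14. Outside the epithelium, the medians were -0.61, 0.21 and -0.11 for fibroblast markers, -0.16, 0.42 and -0.44 for pericyte and smooth muscle markers, and 0.06, 0.41 and 0.09 for macrophage markers. They were -0.06, 0.13 and 0.05 for nerve and glia markers, and -0.79, -0.25 and -0.83 for pancreas acinar markers. None of these lists highest on array 2 had a member past limma's threshold. An unadjusted p under 0.05 was reached by 26.3% of all genes. It was found for 1 Paneth, 2 goblet, 3 tuft, 1 fibroblast, 3 smooth muscle and 2 macrophage markers. At that level 4 stem markers were higher and 1 lower, where 12% and 14.3% of all genes were. Of the nerve and glia markers 2 were lower, and of the acinar markers 4 were lower and 1 higher. On arrays 1 and 3, where Lfng had 0.81 and 0.85, the goblet, tuft, fibroblast, smooth muscle and acinar medians were below 0. The stem and macrophage medians were above 0 on both, and the Paneth and nerve medians were below 0 on array 1 only. The part of these cell types in the Lfng ratio was not tested.

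**Figure D3:**
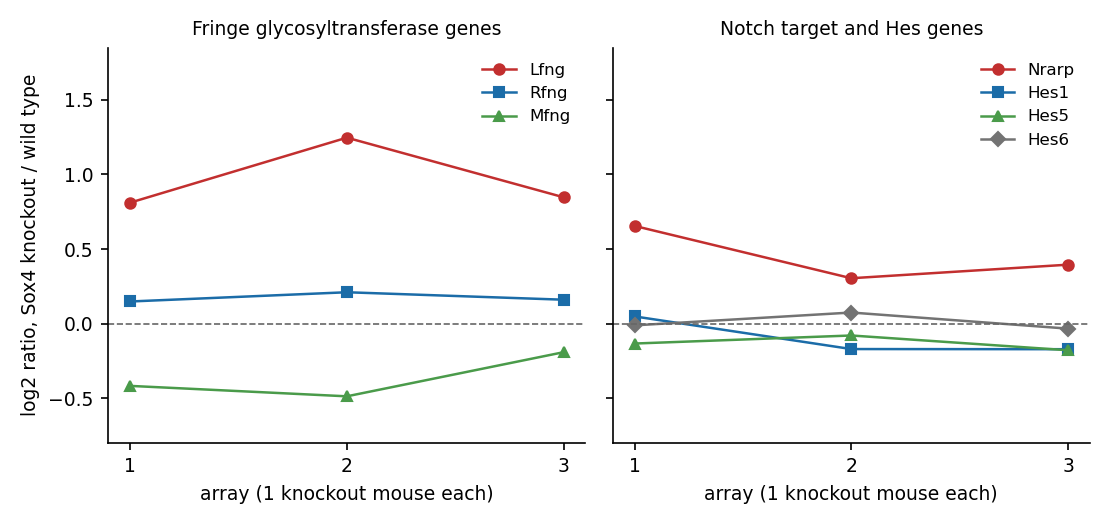
Log2 ratio of knockout over wild type (y axis) on arrays 1, 2 and 3 (x axis) for the Fringe genes (left) and for Nrarp and the Hes genes (right). Lines join the values of 1 gene and imply no order of the arrays. Lfng stays above Rfng and Rfng above Mfng on every array, and Nrarp stays above Hes1, Hes5 and Hes6.

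Nrarp, a small ankyrin repeat protein that is induced by Notch and limits Notch signalling in return, had log2 ratios of 0.66, 0.30 and 0.40. It was above 0 on every array and highest on array 1, with a mean of 0.45 ± 0.18 (interval 0.14 to 0.76), or 1.37-fold higher. Its unadjusted p was 0.0132 and its adjusted p 0.111 by limma (n = 3). Unlike Lfng, Nrarp had its lowest ratio on array 2. In the order of the 10 means it followed Lfng, whose range it did not overlap, and came before Notch2, whose range of 0.18 to 0.43 it did overlap. All further neighbours in that order, from Notch2 through Dll4, Notch1, Dll1, Hes6, Hes1 and Hes5 to Jag1, also had overlapping ranges.

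Hes1, the repressor through which Notch holds back the secretory master gene Atoh1, had log2 ratios of 0.05, -0.17 and -0.17. The sign was not shared by the arrays, and the mean was -0.10 ± 0.13 (interval -0.39 to 0.19, limma adjusted p = 0.614). On the linear scale this interval runs from 0.763-fold to 1.14-fold of wild type. Hes5, a further direct target, was slightly below 0 on every array at -0.13, -0.08 and -0.18 (mean -0.13 ± 0.05, interval -0.40 to 0.14, adjusted p = 0.476 by limma). Hes6, a family member that counteracts Hes1 in other tissues, had -0.01, 0.07 and -0.03 (mean 0.01 ± 0.06, interval -0.27 to 0.28, adjusted p = 0.964 by limma). The small spread of Hes5 and Hes6 over arrays is a spread of ratios. No intensities were used here, and whether their probes lay above background is not known.

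Differences between the targets were taken within arrays, where the smallest exact p is 0.25. Hes1 minus Nrarp was -0.61, -0.48 and -0.57, a mean of -0.55 ± 0.07 (n = 3, exact sign-flip p = 0.25, adjusted p = 0.40). This was a difference with little spread, of the same sign on 3 of 3 arrays. Hes1 minus Hes5 was 0.18, -0.09 and 0.01 (mean 0.03 ± 0.14, n = 3, exact sign-flip p = 0.75). Hes1 minus Hes6 was 0.06, -0.24 and -0.14 (mean -0.11 ± 0.15, n = 3, exact sign-flip p = 0.50). Neither of these differences exceeded its spread.

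**Figure D4:**
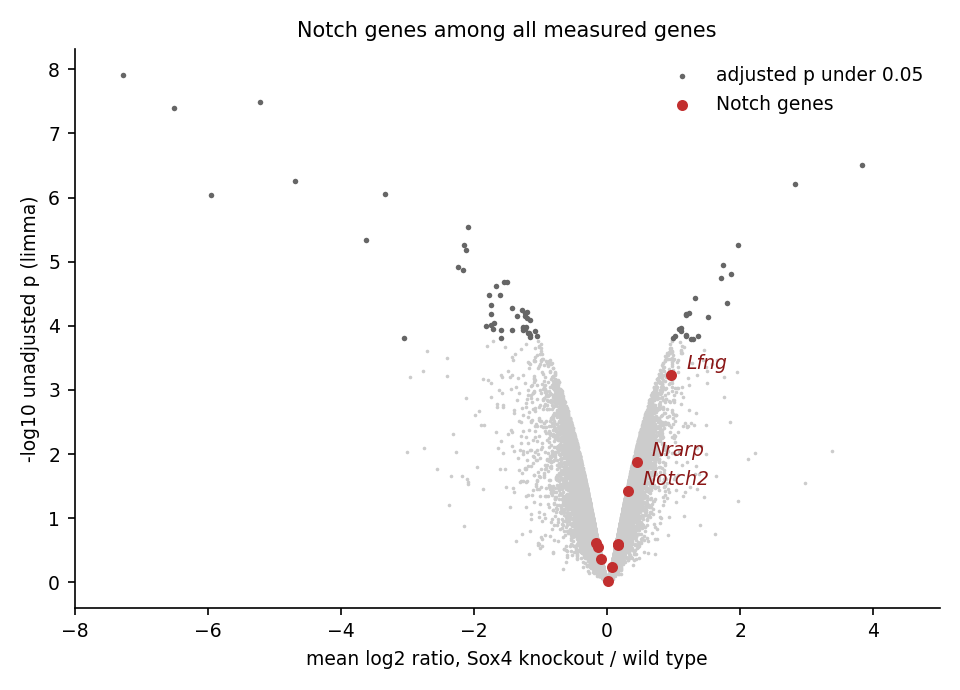
Mean log2 ratio of knockout over wild type (x axis) against the -log10 of limma's unadjusted p (y axis) for 20738 genes in light grey, the 68 genes with an adjusted p under 0.05 in dark grey and the 10 Notch genes in red. Lfng lies just below the dark grey points, Nrarp and Notch2 lie within the bulk of the right arm, and the other 7 lie near the origin.

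Other genes of the pathway were taken from 8 lists by role, with 82 of 85 genes measured. Their median was -0.00, and 1 of the 82 passed limma's test, a fall, where 0.222% of all genes fell. At an unadjusted p under 0.05, 13 were higher and 11 lower, where 12% and 14.3% of all genes were. The gene that fell was Dner, a transmembrane protein of neurons described as a non-canonical Notch ligand. It had log2 ratios of -1.45, -1.28 and -1.04 and was lower on every array (mean -1.26 ± 0.21, adjusted p = 0.0461). The call of Dner was lost whichever array was left out, with adjusted p-values of 0.234, 0.0778 and 0.205 and means of -1.16, -1.25 and -1.36 without arrays 1, 2 and 3. Enteric nerve and glia markers had a list median of 0.04 over 6 genes, with 0 past the threshold and 2 at an unadjusted p under 0.05. Enteroendocrine markers, which mark hormone-secreting cells, had array medians of -0.85, -1.29 and -0.49. The part of either cell type in the Dner ratio was not tested.

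Of the remaining ligands and receptors, 0 passed limma's test. An unadjusted p under 0.05, reached by 26.3% of all genes, was found for 1. This was Cntn1, a neural adhesion protein described as a non-canonical Notch ligand, which was below 0 on every array at -0.28, -0.57 and -0.55 (mean -0.47 ± 0.16, adjusted p = 0.100 by limma). Jag2 had -0.22, 0.20 and 0.21. Notch3, a receptor of vascular smooth muscle, had -0.38, 0.35 and 0.41. Notch4, an endothelial receptor, had -0.16, 0.64 and 0.40. Jag2, Notch3 and Notch4 were below 0 on array 1 and above it on arrays 2 and 3, as was the median of the endothelial markers. The median of the pericyte and smooth muscle markers was -0.16, 0.42 and -0.44, and so below 0 on array 3. The part of these cell types in the 3 ratios was not tested.

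Among the 6 other genes listed under receptor glycosylation and maturation, 4 were above 0 on all arrays (23.2% of all genes were). Limma's test called 0 of them. At an unadjusted p under 0.05, 2 were higher (Pofut2, Poglut1) and 1 lower (Mfng), where 12% and 14.3% of all genes were. Pofut2, a protein O-fucosyltransferase whose action on Notch receptors was not examined here, had the highest mean at 0.51 ± 0.27 (adjusted p = 0.110 by limma). Poglut1, which glucosylates the receptor, had 0.35 ± 0.16. Pofut1, which adds the fucose that Fringe enzymes extend, had 0.13, 0.05 and 0.24 (mean 0.14 ± 0.10, adjusted p = 0.462 by limma). The enzyme gene upstream of the Fringe step thus had a ratio close to 0 beside that of Lfng.

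Of 7 measured protease genes 0 passed, and their median was -0.10. An unadjusted p under 0.05, which 26.3% of all genes reached, was found for 1 of them. Ncstn, which encodes the gamma-secretase subunit nicastrin, had the highest mean but varied widely, at 0.80, 1.12 and 0.12 (mean 0.68 ± 0.51, limma adjusted p = 0.129). Adam17 had the lowest mean of those with a common sign, at -0.28 ± 0.27, and Adam10, the main protease of the first cut, had -0.27 ± 0.11. Genes of ubiquitination and trafficking lay on both sides of 0, with 9 means above and 9 below and 0 of 18 past limma's threshold (5 at an unadjusted p under 0.05). The ligase gene Neurl1a was below 0 on every array at -0.78 to -1.0 and missed the threshold (mean -0.88 ± 0.11, adjusted p = 0.0543 by limma). Dtx3, of the Deltex family, had 0.51, 1.56 and 0.59 and was, like Lfng, highest on array 2 (mean 0.88 ± 0.58, adjusted p = 0.0998 by limma).

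In the nucleus, Rbpj was below 0 on every array at -0.33, -0.14 and -0.44 (mean -0.30 ± 0.15, limma unadjusted p = 0.0481, adjusted p = 0.187). The 25 measured genes of the nuclear complex and its corepressors had a median of 0.03, with 0 past limma's test. At an unadjusted p under 0.05 there were 9, 6 higher and 3 lower, where 12% and 14.3% of all genes were. The corepressor gene Tle3 had the lowest mean at -0.57 ± 0.17 (adjusted p = 0.0822 by limma), and Cir1, which encodes a corepressor that binds Rbpj, had the highest at 0.70 ± 0.49 (adjusted p = 0.117 by limma).

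The list of other Hes and Hey genes also holds the related repressor genes Bhlhe40 and Bhlhe41. It had 6 of 8 means below 0, a median of -0.10 and 0 past limma's test. At an unadjusted p under 0.05 there were 2, both lower, where 14.3% of all genes were lower. Hey1, a target best known from vessels and heart, had -1.18, -0.53 and -0.06, a spread as large as its mean of -0.59 ± 0.57 (adjusted p = 0.177 by limma). Hey2 had -0.72, -0.29 and 0.69, and Heyl had -0.41, -0.19 and 0.22. All of the Hey genes were lowest on array 1 and highest on array 3. Hes7 had the highest mean of those with a common sign, at 0.19 ± 0.05.

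Atoh1, the master regulator of secretory fate that Hes1 represses, had -0.50, -0.24 and 0.05 (mean -0.23 ± 0.27, limma adjusted p = 0.354). The 10 secretory fate genes had a median of -0.15, with array medians of -0.31, 0.16 and 0.04, and 0 passed limma's test. An unadjusted p under 0.05 was found for Spdef, a goblet and Paneth cell factor (-0.72 ± 0.39, adjusted p = 0.0921), and for Neurog3, the enteroendocrine factor (0.45 ± 0.20, adjusted p = 0.113). These had opposite signs, and each kept its sign on all arrays. An unadjusted p under 0.05 was reached by 26.3% of all genes.

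**Figure D5:**
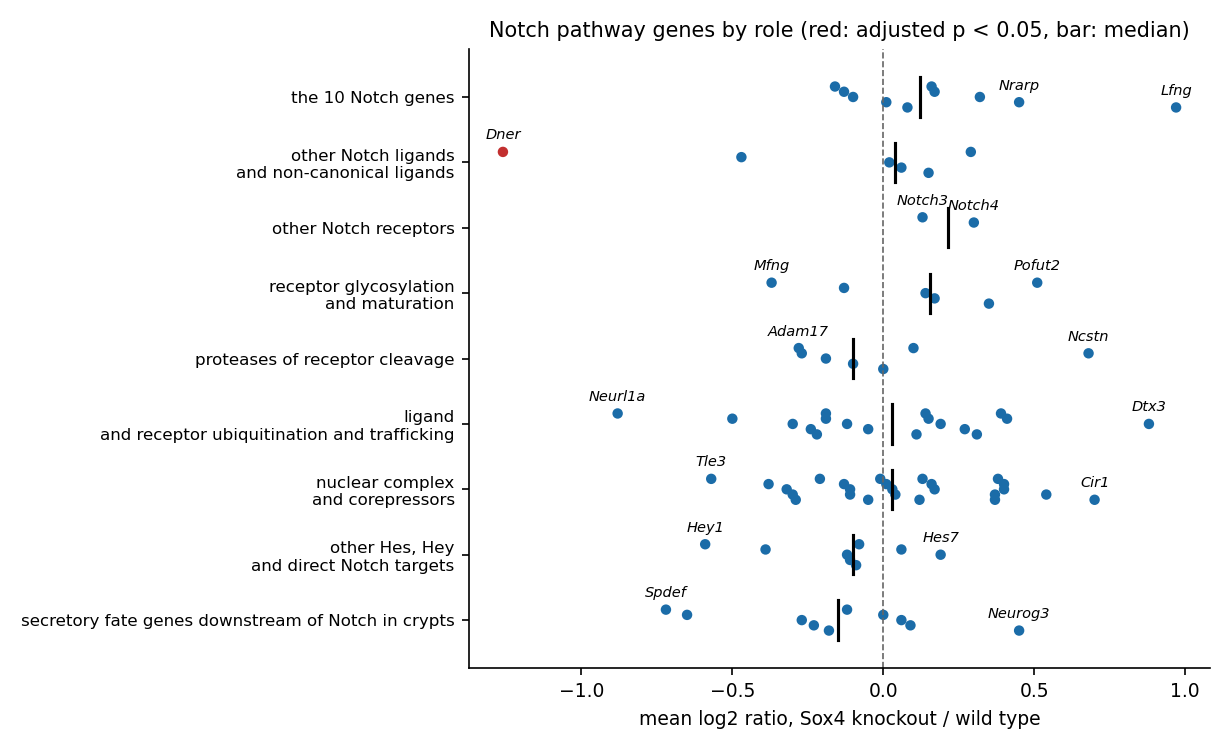
Mean log2 ratio of knockout over wild type (x axis) of the 10 Notch genes and of 82 other pathway genes by role (y axis), with 1 point per gene, list medians as black bars and the gene past an adjusted p of 0.05 in red. List medians lie between -0.15 and 0.21, Dner is the red point at -1.26, and Lfng at 0.97 is the highest point.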

How the data were processed

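The authors deposited log ratios of the array's channels, taken here as log2, for 62976 features on each of 3 arrays, centred near 0 (medians 0.003 to 0.011). How background was corrected, values normalized and features filtered is, like log base and direction, not given in the sources used here. The range of the values led to base 2 (-7.44 to 5.62), and knockout over wild type from the dyes per the labels. With natural logarithms the fold of Lfng would be 2.63 in place of 1.96. All 3 arrays form 1 group, and this small number limits precision.

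Gene names came from the platform annotation, updated through RefSeq genes of GRCm38.p6: 31465 had 1 symbol, 0 had several and 31511 were unnamed here. Features of 1 gene were averaged. The mean ratio was tested against 0, two-sided, with limma 3.58.1 (R 4.3.3, lmFit and eBayes, 2 residual and 3.51 prior degrees of freedom) and Benjamini-Hochberg adjustment over 20738 genes. How far variation among wild-type mice enters this test is not known, as the make-up of the wild-type RNA is not given. Dye and genotype cannot be told apart because no dyes were swapped. Differences between genes were tested by exact sign flips. In simulated data of 20738 genes, limma called 36% of 50 genes changed by a log2 ratio of 1, 0% of those changed by 0.5, and 70% of those changed by 2, with 1 false call. The simulated noise was normal, with the observed SDs shuffled over genes, and only 50 genes of each size were changed. These shares therefore need not hold for the deposited data.

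Alternatives were array centring, quantile normalization, the median of features, the feature with the largest mean, robust eBayes, and leaving out each array. The 10 genes and all lists were chosen with earlier results of these data known. Named were the 10 genes, Sox4, a fixed set of further Notch genes (Mfng, Rfng, Notch3, Notch4, Jag2, Rbpj, Atoh1 and the Hey genes), and in each list the largest rise and fall of common sign; Cntn1, Pofut1, Poglut1, Adam10, Eif2s3y and Xist were added after their values were seen. No genes of like pattern were sought, since 3 arrays give 3 points. Figures were made with Python 3.11.15 and matplotlib 3.10.9.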

Additional observations from a re-analysis of the deposited data

How the results depend on the processing

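No paired analysis was possible because all arrays form 1 group. In each of the alternatives run, 0 of the 10 genes passed the threshold. The adjusted p of Lfng lay between 0.0506 (quantile normalization) and 0.0631 with all arrays, and between 0.104 and 0.240 with an array left out. With an array left out, the mean of Dll1 ranged from -0.06 to 0.16 (negative without array 3), that of Hes6 from -0.02 to 0.03 (negative without array 2), and Hes1 minus Hes5 from -0.04 to 0.09 (negative without array 1). Dll4 had 0.05 without array 3 (0.17 with all), Notch1 0.04 without array 2 (0.16) and Jag1 -0.07 without array 2 (-0.16). The median of the 10 genes then ranged from 0.04 to 0.18 and that of the other pathway genes from -0.02 to 0.04, with 0 to 0 of the latter past the threshold. With the feature of the largest mean the latter median was 0.05, and Notch2 had 0.55. The count over all genes was 68, and 10 without array 1, 66 without array 2 (25 of them among the 68) and 4 without array 3. It was 100 after quantile normalization. The cause was not tested. Signal over background was not analysed here.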
